A study of Homo sapiens with 6 samples.

Results

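The genes described here are the protein-coding zinc finger genes with a numbered ZNF symbol on an autosome other than chromosome 19. They were taken from the authors' deposited table of 13885 genes by matching its Ensembl identifiers, without version, to symbols and chromosomes in GENCODE 29 on GRCh38. The annotation holds 225 such genes, of which 200 were in the table and 25 were not, and those 25 are not analysed here. The 200 measured genes lie on 19 chromosomes, and the rule that chose them uses no expression value.

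RNA was sequenced from BE(2)-C cells, a human neuroblastoma line with amplified MYCN, in 6 samples. Cells of 3 samples were transfected with small interfering RNA targeting PCIF1 (siPCIF1), and cells of the other 3 with a scrambled sequence (siScramble). The siRNA acted for 24 h, and all 6 samples, controls included, were then kept for 4 days in 10 µM all-trans retinoic acid (ATRA), which drives these cells towards a neuronal form. BE(2)-C is a clone of a single neuroblastoma line, SK-N-BE(2), and there was no sample without ATRA or without siRNA. PCIF1 methylates adenosine to m6Am where it is the first transcribed base, next to the cap, and the series title links m6Am to PCF11, a factor of 3′ end cleavage and termination.

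Values come from the authors' deposited table, a DESeq2 comparison that gives the mean normalised count over all 6 samples, the log2 fold change, its standard error (SE) and an adjusted p. No values per sample were analysed here, so the SE is the only guide to the spread between samples, and the overlap of the groups cannot be shown. No SE was above 0.295, even at mean counts near 10, so for genes with few counts it may understate that spread. The labels do not say whether the 3 samples of a group are separate cultures; if they are not, p-values reflect no more than the spread between these samples, which may be technical. All fold changes are given as siPCIF1 over siScramble, a direction read from the sign of PCIF1 itself. PCIF1 was at a log2 fold change of -0.82 (SE 0.19), a level of 56.6% of siScramble, with an adjusted DESeq2 p of 0.000167 per the authors' deposited table. The sign of PCIF1 is therefore no evidence that the siRNA worked, and the name of the table, read plainly, gives the opposite order, in which every sign below would turn and increases would be decreases. PCF11 was at 0.35 (SE 0.16) per the authors' deposited table, with an adjusted DESeq2 p of 0.0667. All 10 of 10 fixed markers of adrenergic neuroblastoma were in the table, as were 4 of 6 mesenchymal ones. Of 8 markers of blood, endothelial, epithelial and liver cells only EPCAM was in it, at a mean normalised count of 13.9.

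Most ZNF genes encode proteins with a row of C2H2 zinc fingers, each a short loop folded around a zinc ion that reads a few bases of DNA. Many also carry a KRAB box, which recruits the corepressor TRIM28 and, through it, the histone methyltransferase SETDB1 to silence transposable elements and nearby genes. A SCAN domain, found in other members, lets the proteins pair with each other. Such genes arose by repeated local duplication, and the largest arrays lie on chromosome 19. The genes off that chromosome include both smaller arrays and old single-copy genes with roles in transcription, RNA processing and ribosome assembly.

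More of the 200 genes rose than fell with siPCIF1. By the authors' deposited table, 47 of them (23.5%) rose and 22 (11%) fell at an adjusted DESeq2 p under 0.05, while 131 did not pass. Over all genes that the authors' deposited table holds, 16.3% rose and 17.7% fell, together 34.0%. The share that changed in either direction, 69 of 200 or 34.5%, was thus near that of all genes, and the difference lay in the balance of directions. The 200 genes had mean normalised counts between 9.30 and 1276, with 126 as the median. The median log2 fold change of the 200 was 0.13 per the authors' deposited table (quartiles -0.18 and 0.48), and 118 of 200 were above 0. The median of all genes per the authors' deposited table was 0.01. Changes were moderate: 4 genes reached 1 in either direction (ZNF195, ZNF367, ZNF853 and ZNF622), the range ran from -1.60 to 1.09, and the SE from 0.13 to 0.30. In bulk RNA, fewer cells of a type and less RNA per cell cannot be told apart. Chromosome 16 alone held 8 of the 22 decreases, and without it 14 genes off chromosome 19 fell and 45 rose.

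**Figure D1:**
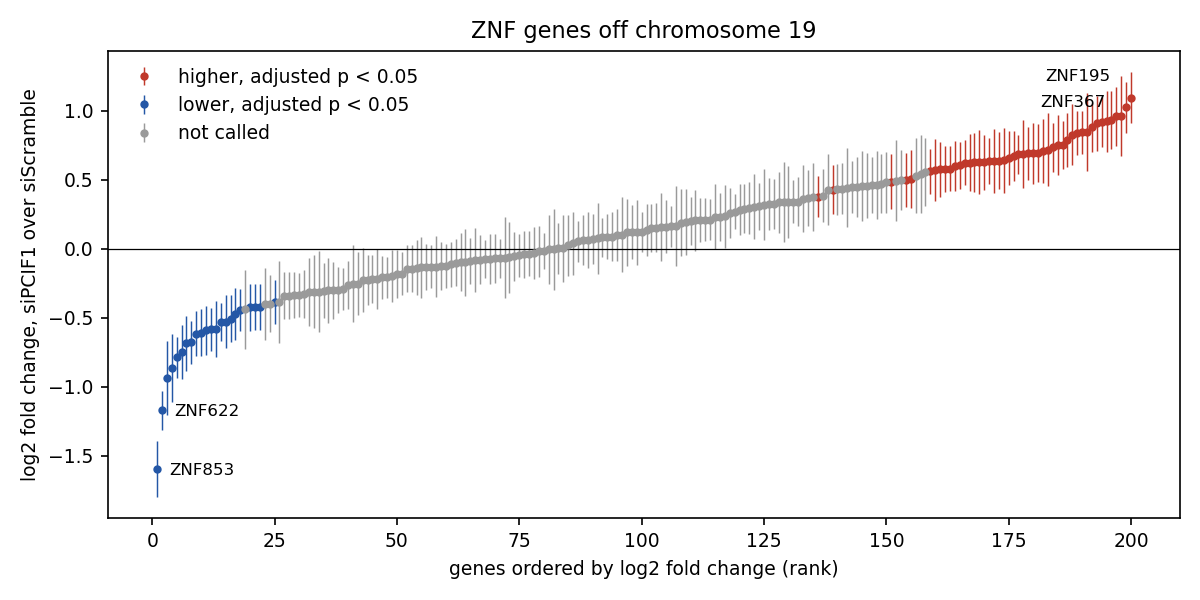
Log2 fold change (siPCIF1 over siScramble) of the 200 genes ordered by size, with bars of 1 SE; red and blue mark genes with an adjusted p under 0.05. The 47 increases on the right outnumber the 22 decreases on the left, but the largest single change is the decrease of ZNF853 at -1.60.

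The largest increase was that of ZNF195, a KRAB zinc finger gene on chromosome 11 (ENSG00000005801.16, 3339261 to 3379222). Its log2 fold change was 1.09 (SE 0.19), or 213% of siScramble (46.8% with the direction turned), at a mean of 178 normalised counts, with an adjusted DESeq2 p of 1.13e-07 per the authors' deposited table. ZNF367, which encodes a transcription factor with few fingers and no KRAB box, followed at 1.02 (SE 0.19; adjusted DESeq2 p 1.18e-06) per the authors' deposited table. The largest decrease was that of ZNF853 on chromosome 7 (ENSG00000236609.3, 6615617 to 6624290), a gene with 5 fingers. ZNF853 was at -1.60 (SE 0.20), or 33.1% of siScramble (302% with the direction turned), at a mean of 188, with an adjusted DESeq2 p of 1.16e-13 per the authors' deposited table. ZNF622 on chromosome 5 (ENSG00000173545.4, 16451519 to 16465792), a cytoplasmic assembly factor of the large ribosomal subunit rather than a DNA-binding repressor, fell by 1.17 on the log2 scale (SE 0.14) to 44.4% of siScramble (225% with the direction turned). Its mean was 793 and its adjusted DESeq2 p 1.80e-14 per the authors' deposited table.

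The first transcribed base decides whether a transcript can carry m6Am, so the promoters of the 4 largest increases and the 4 largest decreases (mean of 50 or more) are shown. Each runs 5′ to 3′ on the gene's strand over the 100 bases before the RefSeq start on GRCh38.p14 and ends with the start base. Capitals mark that last base, GC boxes (GGGCGG, or CCGCCC on the other strand) and CCAAT boxes (CCAAT, or ATTGG on the other strand). ZNF195 (chr11:3379146-3379246, minus strand), ZNF367 (chr9:96418370-96418470, minus), ZNF891 (chr12:133130274-133130374, minus) and ZNF589 (chr3:48241004-48241104, plus) rose. ZNF853 (chr7:6615510-6615610, plus), ZNF622 (chr5:16465800-16465900, minus), ZNF70 (chr22:23751112-23751212, minus) and ZNF213 (chr16:3134929-3135029, plus) fell.
ZNF195: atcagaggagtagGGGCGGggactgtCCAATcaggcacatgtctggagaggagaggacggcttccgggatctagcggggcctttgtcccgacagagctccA
ZNF367: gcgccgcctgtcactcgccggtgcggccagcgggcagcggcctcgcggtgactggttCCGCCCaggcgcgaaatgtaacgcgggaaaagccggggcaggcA
ZNF891: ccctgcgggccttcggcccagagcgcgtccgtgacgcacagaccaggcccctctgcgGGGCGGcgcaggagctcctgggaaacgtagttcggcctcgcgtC
ZNF589: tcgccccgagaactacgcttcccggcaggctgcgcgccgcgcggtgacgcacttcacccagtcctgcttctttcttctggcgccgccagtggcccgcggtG
ZNF853: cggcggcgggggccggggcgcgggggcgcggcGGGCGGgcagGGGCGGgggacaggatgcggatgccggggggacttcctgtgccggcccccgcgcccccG
ZNF622: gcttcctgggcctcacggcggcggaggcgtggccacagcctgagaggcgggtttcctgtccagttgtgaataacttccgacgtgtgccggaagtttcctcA
ZNF70: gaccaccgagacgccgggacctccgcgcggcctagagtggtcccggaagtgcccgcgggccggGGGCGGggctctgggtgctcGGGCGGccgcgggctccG
ZNF213: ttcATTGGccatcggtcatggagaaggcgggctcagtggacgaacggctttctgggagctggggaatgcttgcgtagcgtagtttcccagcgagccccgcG

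These 8 promoters show no start base or box common to either direction. The RefSeq start base is A in ZNF195, ZNF367 and ZNF622, C in ZNF891 and G in the other genes. In GENCODE the first base is C in ZNF195, G in ZNF367 and T in ZNF622, so a start with A is uncertain there. A GC box is present in ZNF195, ZNF367, ZNF891, ZNF853 and ZNF70, and a CCAAT box in ZNF195 and ZNF213. Over the 169 genes with a RefSeq promoter, 43.2% start with A, against 45.6% of 9836 genes of the whole table. Start base A was found in 18 of 41 increases, 10 of 21 decreases and 45 of 107 genes that did not pass. The median log2 fold change per the authors' deposited table was 0.12 for the 73 genes that start with A and 0.16 for the 96 others. An annotated start need not be the start used in these cells, and first bases from GENCODE differ, with A in 26.5% of the 200 genes and 29.9% of all genes. GC boxes were found in 42.6% of the 169 promoters and 52.4% of all 9836, and CCAAT boxes in 27.8% and 22.1%. Both strands were searched. The letters CCGCCC and CCAAT can overlap by their shared C bases, which happens in none of the 8 promoters shown, and a match describes the letters only.

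The other large increases mix repressors and regulators of development. In the authors' deposited table ZNF891 (log2 fold change 0.96), ZNF589 (0.93), ZNF678 (0.92), ZNF605 (0.91), ZNF138 (0.83) and ZNF484 (0.79), all with a KRAB box, rose with adjusted DESeq2 p from 6.10e-05 to 0.00118. ZNF24, a SCAN protein needed for myelination in mice, rose by 0.92 (SE 0.18; adjusted DESeq2 p 5.36e-06) per the authors' deposited table. ZNF217, an oncogene amplified in breast cancer that works with CtBP corepressors, rose by 0.88 (SE 0.18; adjusted DESeq2 p 1.05e-05) per the authors' deposited table. ZNF462, a protein with 33 fingers whose loss causes a neurodevelopmental syndrome, rose by 0.84 (SE 0.16; adjusted DESeq2 p 1.42e-06), and ZNF770 rose by the same amount per the authors' deposited table. ZNF485 was at 0.96 per the authors' deposited table, but its mean normalised count was only 17.2 (SE 0.29; adjusted DESeq2 p 0.00601).

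Among the 12 largest decreases of genes with a mean of at least 50, ZNF688 was the only one that met the KRAB consensus; ZNF205, ZNF213, ZNF263 and ZNF496 matched it in part. In the authors' deposited table ZNF70 fell by 0.79 (SE 0.15; adjusted DESeq2 p 2.13e-06) and ZNF697 by 0.68 (SE 0.16; adjusted DESeq2 p 0.000152). The SCAN genes ZNF213 (-0.75), ZNF263 (-0.59) and ZNF496 (-0.53) fell per the authors' deposited table, with adjusted DESeq2 p from 0.000631 to 0.00134; the product of ZNF496 binds the histone methyltransferase NSD1. ZNF771 (-0.69), ZNF768 (-0.62), ZNF205 (-0.61) and ZNF688 (-0.59) also fell per the authors' deposited table, and these 4 lie on chromosome 16. ZNF768 encodes a protein that binds old repeat elements and promotes proliferation. ZNF408, mutated in inherited retinal vessel disease, was at -0.58 (SE 0.20; adjusted DESeq2 p 0.0168) per the authors' deposited table. ZNF503, a corepressor of neural development, was at -0.94 at a mean of 24.2 (SE 0.27; adjusted DESeq2 p 0.00263) per the authors' deposited table. Of the 24 genes that make up the 12 largest increases and the 12 largest decreases, 14 overlap a gene on the opposite strand. Libraries were made with a stranded kit, but the sources used here do not give the strand setting of the counting, so overlapping pairs are uncertain.

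Genes listed for a known function moved in both directions or did not pass. Of 34 such genes listed, 33 were in the authors' deposited table, where 10 rose, 3 fell and the median log2 fold change was 0.12. The share called, 39.4%, was near the 34.0% of all genes, with 30.3% higher and 9.09% lower against 16.3% and 17.7%. Among RNA-linked genes, ZNF638, a nuclear matrix protein that brings the HUSH silencing complex to retroviral DNA, rose by 0.75 (SE 0.18; adjusted DESeq2 p 0.000188) per the authors' deposited table. ZNF326, part of a complex that couples RNA polymerase II to messenger ribonucleoproteins, rose by 0.69 (SE 0.22; adjusted DESeq2 p 0.00909) per the authors' deposited table. In chromatin and protein modification, ZNF644, a partner of the methyltransferases EHMT1 and EHMT2, rose by 0.66. ZNF445, which guards imprinted genes, rose by 0.62 and the SUMO ligase ZNF451 by 0.56, all per the authors' deposited table with adjusted DESeq2 p from 0.000987 to 0.00401. ZNF148, a factor that binds GC-rich promoters, and ZNF292, linked to neurodevelopmental disorder, rose by 0.63 and 0.61 per the authors' deposited table.

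Several well-studied regulators did not pass. ZNF143, an activator at many promoters, was at 0.16 (SE 0.19) and its relative ZNF76 at -0.07 (SE 0.18) per the authors' deposited table. ZNF207, a spindle and splicing factor, was at -0.02 (SE 0.13), the narrowest SE of this list, per the authors' deposited table. The ribosome factors ZNF593 (-0.34) and ZNF598 (-0.13), which act in subunit assembly and in sensing collided ribosomes, did not pass, unlike ZNF622, per the authors' deposited table; the difference between them was not tested. ZNF423, a cofactor of the retinoic acid receptor, was at -0.33 (SE 0.17; adjusted DESeq2 p 0.127) per the authors' deposited table, and ZNF521, its relative, was not in the table. ZNF687 (-0.29), ZNF592 (-0.18) and ZNF532 (0.08), which form a module with ZMYND8, did not pass per the authors' deposited table. Of the 3 genes with the highest means, ZNF704 (mean 1105) rose by 0.68 per the authors' deposited table, while ZNF664 (mean 1276) was at 0.27 and ZNF609 (mean 988) at 0.12. Means are not per length, so they show precision and not which gene is more expressed.

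Increases were mostly genes poor in GC and decreases mostly genes rich in GC. GC content is the share of G and C bases in the main annotated transcript of a gene, and in the 200 genes it ran from 33.2 to 70.1% with a median of 46.8%. Across the 200 genes Spearman's rho between GC content and log2 fold change, both over the genes of the authors' deposited table, was -0.72. It was -0.53 across 214 ZNF genes of chromosome 19 and -0.44 across all 11790 protein-coding genes of the table. The points share the same 6 libraries, so no test is given. Of the 67 genes poorest in GC, up to 42.2%, 29 rose and 1 fell, with a median of 0.48 per the authors' deposited table. Within the same GC limit 36.3% of 2917 protein-coding genes rose and 6.24% fell, against 43.3% and 1.49% of these 67. Of the 66 genes between, 17 rose and 3 fell, 25.8% and 4.55%, with a median of 0.12, against 16.8% and 16.0% of 4544 protein-coding genes. Of the 67 genes richest in GC, above 53.3%, 1 rose and 18 fell per the authors' deposited table, 1.49% and 26.9%, with a median of -0.22. Of 4329 protein-coding genes above that limit 5.01% rose and 30.4% fell. None of these differences between the zinc finger genes and protein-coding genes was tested. The exceptions, chosen after their values were seen, were ZNF639, which fell by 0.42 at a GC content of 40.3%, and ZNF618, which rose by 0.43 at 59.2%, per the authors' deposited table.

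**Figure D2:**
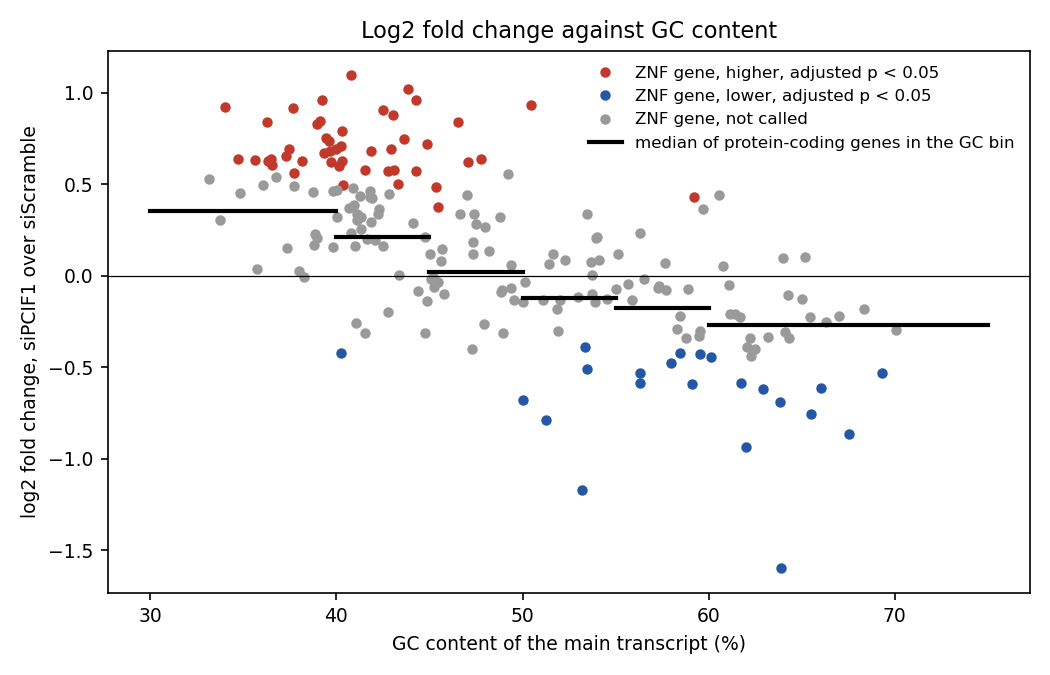
Log2 fold change (siPCIF1 over siScramble) of each of the 200 genes against the GC content of its main transcript in percent, coloured by call; black bars are medians of protein-coding genes in 6 GC bins. Increases lie mostly below 50% GC and decreases mostly above it, and the medians of protein-coding genes run the same way from 0.35 to -0.27.

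Medians fell with GC content in protein-coding genes as a whole too, and those of the zinc finger genes were higher at low GC. In the bin under 40% GC the median per the authors' deposited table was 0.62 for 37 genes off chromosome 19, 0.50 for 58 on it and 0.35 for 1756 protein-coding genes. From 40 to 45% it was 0.43, 0.42 and 0.21 for 51, 91 and 2521 genes of the authors' deposited table. From 45 to 50% it was 0.12 for 31 genes off chromosome 19 and 0.02 for protein-coding genes of the authors' deposited table. From 50 to 55% it was -0.11 for 25 genes off chromosome 19 and -0.12 for 1745 protein-coding genes of the authors' deposited table. From 55 to 60% these medians of the authors' deposited table were -0.11 for 24 and -0.17 for 1829 genes. At 60% or more the median was -0.32 for 32 genes off chromosome 19, -0.28 for 19 on it and -0.27 for 1922 protein-coding genes of the authors' deposited table. These differences between groups were not tested, and protein-coding genes include the zinc finger genes.

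With the linear trend over all genes with GC content, transcript length and mean count removed from the authors' deposited table, 22 of the 200 genes were higher and 8 lower, against 12.4% and 12.8% of all genes (25.2% together). Both shares of the 200 genes were thus below those of all genes, though more were higher than lower. Of the 47 increases 21 were still called with that trend removed, and of the 22 decreases 8. The median of the residuals, which were computed here from the deposited fold changes, was 0.09 over the 200 genes. Among these genes the residuals still followed GC content (rho -0.32) and gene length (rho 0.26). In protein-coding genes the same values were -0.03 and 0.06. Residual medians were 0.19 for the GC-poor set and 0.007 for the GC-rich set, so the trend with GC was not fully removed here. The residual was 0.91 for ZNF195, 0.90 for ZNF589, 0.87 for ZNF367, -1.33 for ZNF853 and -0.98 for ZNF622. These 5 kept an adjusted p under 0.05, computed here with the DESeq2 SE. ZNF678, ZNF213, ZNF771, ZNF768, ZNF205, ZNF688 and ZNF408 no longer passed. ZNF692 alone passed only with the trend removed, with a residual of 0.58 and an adjusted p of 0.0227, both computed here from the DESeq2 values. Whether the trend with base composition came from the cells or from the libraries was not tested.

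Longer genes tended to have higher fold changes. Spearman's rho between gene length and log2 fold change per the authors' deposited table was 0.40 across the 200 genes, 0.21 across ZNF genes of chromosome 19 and 0.27 across protein-coding genes. Of the 67 longest genes, above 39739 bases, 26 rose and 0 fell by DESeq2 per the authors' deposited table, also 0 lower at an unadjusted p under 0.05, with a median of 0.36. The share called was 38.8%, near the 34.0% of all genes, and of 5357 protein-coding genes above that length 24.9% rose and 11.9% fell. Of the 67 shortest genes, up to 17657 bases, 7 rose and 13 fell, 10.4% and 19.4%, with a median of -0.11, against 8.36% and 27.9% of 3671 protein-coding genes. ZNF407, the longest at 467802 bases, rose by 0.64, whereas ZNF423, at 370396 bases, was at -0.33 per the authors' deposited table. Long genes were also poorer in GC, with a rho of -0.37 between length and GC content. Within these GC-poor, middle and GC-rich sets the rho with length per the authors' deposited table was 0.16, 0.35 and 0.33 in that order. Within the short, middle and long sets the rho with GC was -0.66, -0.78 and -0.43. The GC content of the promoter showed no such order, with a rho of -0.04 over 169 genes.

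The median of genes with a KRAB box was higher than that of genes without one, and they were also poorer in GC. The 88 genes with a KRAB box had a median log2 fold change of 0.31 per the authors' deposited table, with 24 higher and 5 lower, at a median GC of 43.2%. The share called was 33%, near the 34.0% of all genes, with 27.3% higher and 5.68% lower against 16.3% and 17.7%. The 112 others had a median of 0.06, with 23 higher and 17 lower, at a median GC of 50.6%. The difference of these medians, 0.26, came to 0.0645 when a mean of 100 or more was required and to 0.0577 with the trend removed. That removal left part of the relation with GC in these genes. In the GC-poor set the medians per the authors' deposited table were 0.46 for 39 KRAB genes and 0.51 for 28 others. In the middle set they were 0.29 for 29 and 0.09 for 37 genes, and in the GC-rich set -0.21 for 20 and -0.23 for 47 genes of the authors' deposited table. Medians of KRAB and other genes were thus 0.20 apart in the middle set and closer in the others, which was not tested. A further 12 genes matched the KRAB consensus in part and were counted as without it. Of 17 genes with a SCAN domain 5 rose and 3 fell, 29.4% and 17.6%, with a median of 0.06 per the authors' deposited table. The 28 genes with 15 or more fingers had a median of 0.41, and 8 of them rose and 0 fell by DESeq2 per the authors' deposited table, also 0 lower at an unadjusted p under 0.05. Their share called was 28.6%, below the 34.0% of all genes. The 35 genes with 1 to 4 fingers had a median of 0.12, with 10 higher and 6 lower, 45.7% called. Their median GC was 51.4%, against 43.1% of the genes with 15 or more fingers. Medians were 0.05 for 72 genes with 5 to 9 fingers and 0.12 for 58 genes with 10 to 14, so there was no steady order with finger number.

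Of the machinery that KRAB proteins recruit, some genes rose, and TRIM28 and SETDB1 did not pass. All 36 of 36 listed genes were in the authors' deposited table, where 12 rose, 1 fell and the median was 0.18. The share called was 36.1%, near the 34.0% of all genes, but with 33.3% higher and 2.78% lower, against 16.3% and 17.7%. TRIM28, the direct partner of the KRAB box, was at -0.07 (SE 0.16; adjusted DESeq2 p 0.756) and SETDB1 at -0.18 (SE 0.16; adjusted DESeq2 p 0.391) per the authors' deposited table. UHRF1, which guides maintenance DNA methylation, rose by 1.10 (SE 0.20; adjusted DESeq2 p 5.73e-07) per the authors' deposited table. The chromatin remodellers ATRX (0.83) and SMARCAD1 (0.82) and the heterochromatin protein CBX5 (0.62) also rose per the authors' deposited table. SUV39H1, which places methyl groups on histone H3 in heterochromatin, fell by 0.56 (SE 0.18; adjusted DESeq2 p 0.00709) per the authors' deposited table.

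The balance of calls varied from chromosome to chromosome, and these differences were not tested. Chromosome 16 held the most genes, and 2 of its 29 rose while 8 fell, with a median of -0.21 per the authors' deposited table and a median GC of 58.8%. On chromosome 7, 4 of 28 rose and 5 fell, with a median of 0.01 per the authors' deposited table. On chromosome 3, 6 of 15 rose and 1 fell, with a median of 0.44, and on chromosome 9, 5 of 11 rose, with a median of 0.43 per the authors' deposited table. On chromosome 4, 4 of 7 rose, with the highest median of a chromosome, 0.58 per the authors' deposited table, at the low median GC of 39.8%. The share called was 34.5% on chromosome 16 and 32.1% on chromosome 7, near the 34.0% of all genes (16.3% higher, 17.7% lower). It was 46.7% on chromosome 3, 45.5% on chromosome 9 and 57.1% on chromosome 4, each with few genes. Within chromosome 16 the lowest value was that of ZNF213 and the highest that of ZNF267, at 0.64 with a GC content of 36.5% per the authors' deposited table. On chromosome 12 values ran from -0.39 (ZNF641) to 0.96 (ZNF891), and on chromosome 18 from -0.31 (ZNF396) to 0.92 (ZNF24), per the authors' deposited table.

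**Figure D3:**
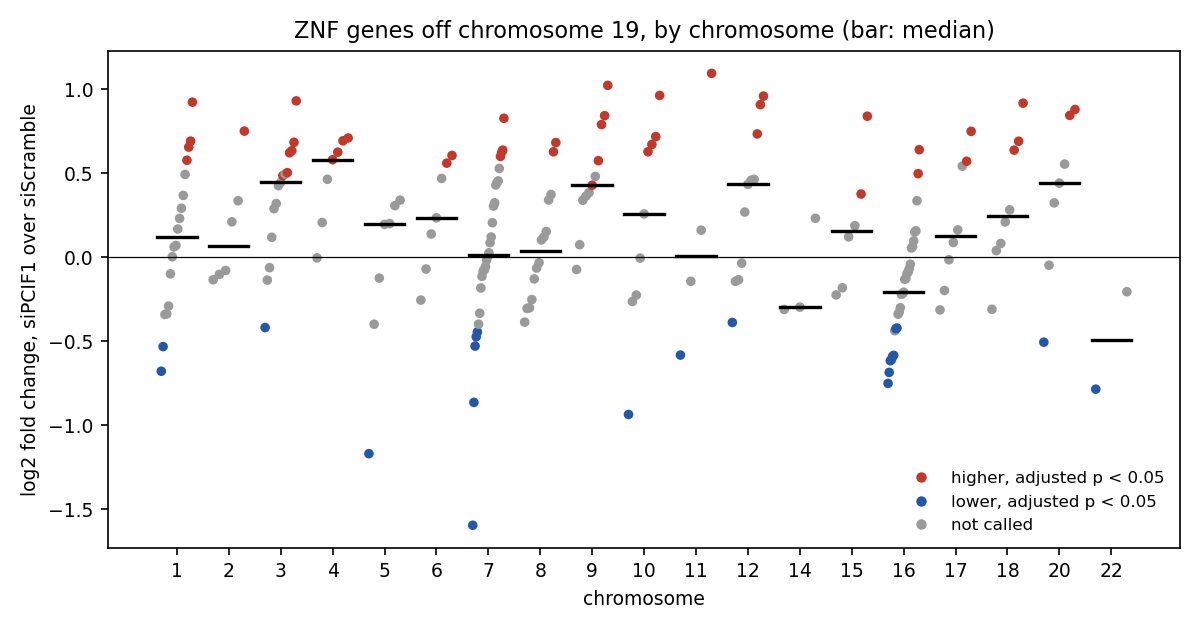
Log2 fold change (siPCIF1 over siScramble) of the 200 genes by chromosome, each point 1 gene coloured by call and each black bar the median of the chromosome. Values above and below 0 occur on most chromosomes, but calls in both directions on only some of them. The lowest median of chromosomes with at least 8 genes is that of chromosome 16, at -0.21.

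Many of the genes lie in arrays of neighbours. Grouping genes less than 500 kb apart, with at least 4 in a group, gave 10 clusters with 71 of the 200 genes. Of these 71 genes 36.6% were called, 21.1% higher and 15.5% lower, near the 34.0% called of all genes (16.3% and 17.7%). In the cluster of chromosome 16 from 3112560 to 3443553 (GRCh38) 3 of 6 genes fell, ZNF205, ZNF213 and ZNF263, with a median of -0.26 per the authors' deposited table. In the cluster of chromosome 7 from 149069643 to 149867479, 9 of 10 genes carry a KRAB box, and 3 of 10 fell, with a median of -0.20 per the authors' deposited table at a median GC of 57.6%. In the cluster of chromosome 7 from 64307459 to 65401135 6 of 7 genes carry a KRAB box, and there 2 rose, with a median of 0.45 per the authors' deposited table at a median GC of 34.9%. The cluster of chromosome 12 from 132918308 to 133214831 has a KRAB box in all 7 genes, of which 3 rose, ZNF605, ZNF84 and ZNF891, with a median of 0.46 per the authors' deposited table. ZNF10, whose KRAB box is the one fused to Cas9 in gene silencing, lies among them at 0.46 (SE 0.24; adjusted DESeq2 p 0.128) per the authors' deposited table. In the cluster at the end of chromosome 4, from 53285 to 499156, 3 of 5 genes rose, ZNF718, ZNF141 and ZNF721, with a median of 0.62 per the authors' deposited table.

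These KRAB clusters of chromosome 7 differed both in the direction of their calls and in base composition. In the GC-rich one, ZNF467 (-0.87, at a mean of only 35.9), its gene without a KRAB box, fell per the authors' deposited table. The KRAB genes ZNF783 (-0.47) and ZNF746 (-0.45), a repressor linked to Parkinson's disease, fell there too. In the GC-poor one, ZNF138 (0.83) and ZNF92 (0.64) rose per the authors' deposited table. Calls in both directions also occurred inside a cluster. In the cluster of chromosome 16 from 30378106 to 31917357, 4 of 14 genes fell, and the genes at one end, ZNF720 (0.50 at 40.3% GC) and ZNF267, rose per the authors' deposited table. In the cluster of chromosome 1 from 246945547 to 247331846, ZNF124 rose by 0.58 at 43.1% GC and ZNF496 fell by 0.53 at 56.3% GC per the authors' deposited table. On chromosome 3, from 44431720 to 44737083, ZNF445, ZNF660 (0.68) and ZNF197 (0.50) rose per the authors' deposited table, 3 of 7 genes.

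**Figure D4:**
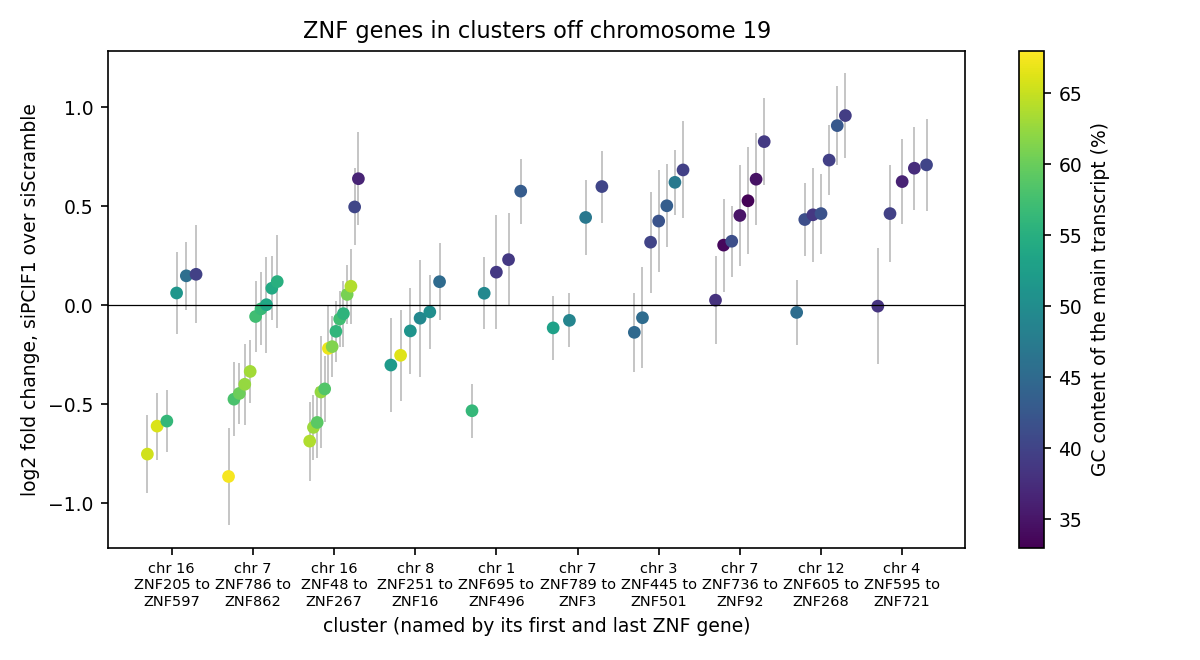
Log2 fold change (siPCIF1 over siScramble) with bars of 1 SE for the 71 genes in 10 clusters, ordered by cluster median and by value within a cluster, coloured by GC content in percent. Clusters of GC-rich genes (yellow and green) lie to the left with medians down to -0.26, and clusters of GC-poor genes (dark blue) to the right with medians up to 0.62.

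The genes on chromosome 19 are the nearest relatives of those described here and had a higher median. Of 214 measured ZNF genes there 71 rose and 9 fell, 33.2% and 4.21%, against 16.3% and 17.7% of all genes. The share called was 37.4%, near the 34.0% of all genes. The median of the 214 was 0.35 per the authors' deposited table, a difference of -0.22 for the genes off chromosome 19. The median GC content of the 214 was 42.3%, below the 46.8% of the genes off chromosome 19. After removal of the GC, length and mean trend, the medians of the residuals computed here were 0.15 on chromosome 19 and 0.09 off it. Residuals of the genes off it still followed GC content, so these medians are not free of it. The difference between the groups was not tested. A further 10 ZNF genes on chromosome X had a median of 0.38 per the authors' deposited table.

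The balance of increases over decreases was read under other call rules on the authors' deposited table. At an adjusted DESeq2 p under 0.01, 31 rose and 13 fell, against 10.7% and 12.1% of all genes, and under 0.1, 57 rose and 23 fell, against 20.1% and 21.1%. When a mean of 100 or more was required, 120 of the genes were left in the authors' deposited table. Of these 120 genes, 31 were higher and 18 lower with p adjusted again over 8798 genes, against 19.5% and 22.2% of those 8798. With no minimum mean but a change of at least 0.5 also required, 43 rose and 16 fell per the authors' deposited table, against 13.1% and 13.4% of all genes. With fold changes centred on the median of all genes 45 rose and 22 fell, against 16.1% and 17.9%. The spread of the Wald statistics was wider than that of a standard normal, with a robust SD of 2.44 per the authors' deposited table. With the DESeq2 statistics divided by that SD no gene off chromosome 19 was called, 0 higher and 0 lower, against 0.151% and 0.821% of all genes, as computed here. At an unadjusted p under 0.05, 6 of the genes were then higher and 3 lower.

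Reads of some members can be shared with other genes. Of the 200 genes, 109 overlap a gene on the opposite strand and 67 one on the same strand, and 65 overlap none. Among those 65 genes 16 rose and 9 fell, 24.6% and 13.8%, per the authors' deposited table. Together 38.5% of the 65 were called, against 34.0% of all genes (16.3% higher, 17.7% lower). For 10 genes at least 20% of the 50-base words of the main transcript also occur in another gene, up to 98.1% in ZNF23, 89.6% in ZNF747 and 85.5% in ZNF410. Their values are uncertain, and of these 10 only ZNF775 was called, lower, per the authors' deposited table.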

How the data were processed

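Per the labels' protocols, RNA from BE(2)-C cells was extracted with Trizol LS, treated with DNase and made into stranded poly(A) libraries. Per the submitters' processing notes the tools included STAR 2.7.10a, HTSeq, DESeq2, cutadapt 3.7, bcl2fastq 2.20 and deepTools, on hg38. The sources used here do not give their settings, the annotation, the strand setting of the counting, the design formula or the depth per library. The total count of a library is therefore unknown. The SE is the only guide to precision, and for genes with few counts it may understate the spread.

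One table was used, with 6 columns per gene. The authors' mean of normalised counts over all samples is a signal that is never negative. The fold change, with its SE, was deposited on the log2 scale. The Wald statistic is a score deposited by the authors. The p-value and adjusted p-value are as deposited, and recomputing them from the statistic with a Benjamini-Hochberg adjustment gave the same values. No SE is above 0.295, and dividing fold change by SE misses the deposited statistic by up to 2.16, so fold changes may be shrunken and understate changes.

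Identifiers were matched to GENCODE 29 without version (13877 of 13885 matched). GC content and length are those of the transcript ranked best by APPRIS, basic tag, support level and length. A linear trend of log2 fold change on GC content, log10 transcript length and log10 mean was fitted over 13877 genes, and its residuals divided by the SE were tested and adjusted over all of them; the step was tested on simulated data. A KRAB box was called at 11 or more of 14 consensus positions, and a SCAN domain at 8 or more of 9, in translated GENCODE coding sequences. The design had left the KRAB comparison out where no protein table was given, and this replacement, the clusters and the GC bins were added after seeing the data. Promoters are from RefSeq on GRCh38.p14, found for 169 of 200 genes.

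Named genes are the 12 largest increases and decreases with an adjusted p under 0.05 and a mean of at least 50, the 3 highest means, the extremes of chromosomes with at least 8 genes, and listed genes with known roles and corepressors. Other named genes, such as cluster members, were chosen after their values were seen. The genes and lists were chosen with earlier results of these data known. Alternatives were other thresholds, a minimum mean, centring, trend removal, scaled statistics, and leaving out overlapping genes, shared sequence or a chromosome. Python 3.11.15, pandas 2.3.3, numpy 2.4.6, scipy 1.17.1 and matplotlib 3.10.9 were used.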

Additional observations from a re-analysis of the deposited data

How the results depend on the processing

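No paired analysis was possible because the deposited table holds no values per sample, and for the same reason leaving out single replicates, other normalisations and other count models were not run. From the 47 increases and 22 decreases as reported, an adjusted p under 0.01 left 31 and 13. Removal of the trend with GC content, length and mean left 22 and 8, and scaling the DESeq2 statistics left 0 and 0. At an unadjusted p under 0.05 the scaled statistics left 6 and 3 of the 200, with no share of all genes to set beside them. A minimum mean of 100 left 31 increases among 120 genes. Leaving out overlapping genes left 16 and 9 of 65 genes. These are 24.6% and 13.8%, against 23.5% and 11% of the 200, so the counts fell but the shares did not. Without chromosome 16, 14 decreases were left. The median of KRAB genes minus that of the others, 0.26 as reported, was 0.0645 at a mean of at least 100 and 0.0577 with the trend removed; the cause was not tested. The other alternatives, including leaving out genes with shared sequence and a looser KRAB pattern (both chosen after seeing the data), kept counts within 1.5 times and medians within the spread. No direction reversed. Depth per library is unknown, and the SE, up to 0.30, may not show what depth limits in genes with few counts.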

Other observations

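Other zinc finger families, which the ZNF symbol rule does not take, were measured in the authors' deposited table too. There 34.0% of all genes were called, 16.3% higher and 17.7% lower. Of 15 measured ZNF genes with a letter in the symbol off chromosome 19, 6 rose and 1 fell, with a median log2 fold change of 0.39. ZNF33B (0.89), ZNF354C (0.88) and ZNF518A (0.84) rose per the authors' deposited table, with adjusted DESeq2 p from 1.02e-05 to 0.000195. Of 35 measured genes with a ZBTB symbol, most of which join zinc fingers to a BTB domain, 8 rose and 4 fell, with a median of 0.19 per the authors' deposited table. Their share called, 34.3%, was near that of all genes. ZBTB33, which binds methylated DNA as Kaiso, rose by 1.03 (SE 0.19) and ZBTB18, a repressor in developing neurons, by 0.73 (SE 0.14) per the authors' deposited table. ZBTB7B, a regulator of T cell fate, fell by 1.12 (SE 0.17; adjusted DESeq2 p 1.10e-09) at a transcript GC content of 62.9% per the authors' deposited table.

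Of 16 measured ZSCAN genes only ZSCAN30 was called, higher at 0.64 (SE 0.20), and the median of the 16 was -0.08 per the authors' deposited table. Of 7 ZKSCAN genes ZKSCAN1 (0.51) and ZKSCAN8 (0.48) rose per the authors' deposited table. Of 16 genes with a ZFP symbol 5 rose and 1 fell per the authors' deposited table; the one that fell, ZFP36 (-0.59), encodes an RNA-binding protein with fingers of another type. Of 8 measured PRDM genes PRDM10 rose by 0.57 and PRDM4 fell by 0.47 per the authors' deposited table. The genes named were chosen after their values were seen.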
